A study of Mus musculus with 2 samples.

Results

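The regions described here are the transfer RNA (tRNA) genes of the mouse genome and the H3K4me3 peaks beside them in adult neural progenitor cells. H3K4me3 is trimethylation of lysine 4 of histone H3, a mark that lies over the starts of active and poised genes. The gene table used, RefSeq on GRCm38.p6 (mm10), listed 391 genes of biotype tRNA on chromosomes 1 to 19. For 5 of them (Trnat-ugu, Trnap-ugg, Trnav-aac, Trnal-aag and Trnav-cac) the table's positions restart outside the sorted run of chromosome 11, so they could not be placed and were left out. The remaining 386 genes, of 46709 RefSeq genes on these chromosomes, are the members. A gene is called marked here when a peak of the authors' list lay within 1 kb of it, and 141 of the 19265 listed peaks did so.

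The study sequenced 1 H3K4me3 library, labelled "con", and 1 input library of sonicated chromatin without pull-down. The header of the peak list given for the "con" library names it EGF-K4, a name that differs from the label, and the label was followed. Both came from neural progenitor cells of adult mice grown in N2 medium with EGF and bFGF, and the labels name no other treatment, strain, sex or age. The filtered depth was 18156769 tags for H3K4me3 and 17831241 for the input. The labels give no replicates, so the spread between cultures is unknown, no test was made, and intervals cover counting error over genes only. All 7 progenitor marker genes reported (Sox2, Nes, Hes1, Vim, Fabp7, Sox9 and Egfr) had a peak within 1 kb of a gene end, with fold enrichments of 33.1 to 54.97. So did 2 of 6 microglial genes (Spi1 and P2ry12), 1 of 5 endothelial and mural genes (Kdr) and 2 of 5 neuronal genes (Snap25 and Syt1), with fold enrichments of 7.88 to 26.8. The part that such cells could have in the results on tRNA genes was not tested.

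Transfer RNAs carry amino acids to the ribosome and read the codon of the messenger RNA with 3 bases called the anticodon. Their genes are transcribed by RNA polymerase III from promoter elements inside the gene, the A box and the B box, which the factor TFIIIC binds before TFIIIB brings in the polymerase. Mammalian genomes hold many copies for each amino acid, often in clusters, and not every copy is used in a given cell type. RefSeq names each gene by amino acid and anticodon, so that n-TLaag4 is a leucine gene with the anticodon AAG.

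The promoter table of RefSeq (GRCm38.p6; 250 bases before to 50 after each start) had an entry for 0 of the 386 tRNA genes. In 10 of its 32851 windows, however, the promoter of another gene overlapped a tRNA gene. The 5 printed here, chosen after their values were seen, show how close tRNA genes lie to other starts, with and without a peak. Each window is printed 5′ to 3′ on the strand of the named promoter, and capitals mark the bases of the annotated tRNA gene. The Polr3e window (chr7:120917528-120917827, plus strand) holds 71 of the 82 bases of n-TLaag4. The Polg window (chr7:79466224-79466523, minus strand) holds all 73 bases of the arginine gene n-TRtcg5, and the Ndufs7 window (chr10:80249199-80249498, plus strand) holds 34 of the 74 bases of the asparagine gene n-TNgtt7. The window of the long non-coding RNA gene Gm46404 (chr13:23445922-23446221, minus strand) holds all 73 bases of the valine gene n-TVcac9. The BC107364 window (chr3:96452257-96452556, minus strand) holds 62 of the 72 bases of the histidine gene n-THgtg7, the only one of the 5 without a peak within 1 kb.
Polr3e: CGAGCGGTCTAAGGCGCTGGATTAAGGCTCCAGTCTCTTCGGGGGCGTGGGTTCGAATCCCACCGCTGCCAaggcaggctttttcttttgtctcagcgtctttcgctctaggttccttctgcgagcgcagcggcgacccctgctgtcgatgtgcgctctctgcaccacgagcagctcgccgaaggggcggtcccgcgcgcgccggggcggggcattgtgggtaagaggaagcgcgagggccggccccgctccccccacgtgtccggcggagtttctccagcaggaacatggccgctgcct
Polg: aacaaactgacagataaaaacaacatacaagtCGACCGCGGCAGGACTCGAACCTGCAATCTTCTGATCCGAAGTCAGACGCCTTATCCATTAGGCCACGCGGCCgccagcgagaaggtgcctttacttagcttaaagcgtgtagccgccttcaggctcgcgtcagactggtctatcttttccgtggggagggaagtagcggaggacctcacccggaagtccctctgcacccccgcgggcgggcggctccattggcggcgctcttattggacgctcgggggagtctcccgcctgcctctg
Ndufs7: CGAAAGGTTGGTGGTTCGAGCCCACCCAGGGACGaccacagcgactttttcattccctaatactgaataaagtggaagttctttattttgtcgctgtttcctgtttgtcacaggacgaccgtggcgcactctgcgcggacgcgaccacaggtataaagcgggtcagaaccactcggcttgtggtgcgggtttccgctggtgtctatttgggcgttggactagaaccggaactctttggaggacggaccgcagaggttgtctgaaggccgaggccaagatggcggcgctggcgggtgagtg
Gm46404: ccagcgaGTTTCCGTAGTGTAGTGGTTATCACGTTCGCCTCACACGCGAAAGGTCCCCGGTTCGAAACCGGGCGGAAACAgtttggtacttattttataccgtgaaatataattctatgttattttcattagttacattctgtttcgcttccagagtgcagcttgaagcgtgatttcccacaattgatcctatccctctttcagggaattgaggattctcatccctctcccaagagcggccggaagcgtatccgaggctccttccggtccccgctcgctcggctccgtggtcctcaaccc
BC107364: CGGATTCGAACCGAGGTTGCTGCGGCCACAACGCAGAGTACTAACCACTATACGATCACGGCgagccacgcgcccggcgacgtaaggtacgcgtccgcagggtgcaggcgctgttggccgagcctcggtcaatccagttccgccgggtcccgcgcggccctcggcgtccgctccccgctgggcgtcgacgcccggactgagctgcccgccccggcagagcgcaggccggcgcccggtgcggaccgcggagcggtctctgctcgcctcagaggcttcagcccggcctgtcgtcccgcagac

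The core letters of the B box, GGTTCGA, were searched on both strands. It was found inside the capitals of all 5 windows, on the printed strand for Polr3e, Ndufs7 and Gm46404 and on the opposite strand for Polg and BC107364. Over all 32851 promoter windows, 299 held it on either strand (0.910%), and it lay inside the tRNA bases in 6 of the 10 windows that overlap a tRNA gene. The motif was therefore present in the unmarked n-THgtg7 as well as in the 4 marked genes. The 4 windows without it inside the tRNA bases all lay at marked genes. Those at n-TNgtt6, n-TLcaa3 and n-TRacg6 held only part of the tRNA gene (47 of 74, 17 of 107 and 25 of 73 bases). The window at the alanine gene n-TAagc16, whose peak had a fold enrichment of 41.2, held all 72 bases. There the strand opposite to the window's reads GGTTCAA, which differs from GGTTCGA in 1 letter. Only exact matches were counted, so a B box in these 4 genes could have been missed. At Polr3e, which encodes a subunit of RNA polymerase III, 1 peak of 2661 bp with 425 tags and a fold enrichment of 44.84 over the input covered the tRNA gene and the start of Polr3e together. The peak at Polg, the gene of the mitochondrial DNA polymerase, had a fold enrichment of 38.6, and the peak at Ndufs7, which encodes a respiratory complex I subunit, had 23.4. The peak over n-TVcac9 had a fold enrichment of 31.8 and 450 tags, while the nearest peak to n-THgtg7 lay 11199 bp away.

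Of the 386 tRNA genes, 224 were marked, which is 58.0% (exact 95% interval 52.9 to 63.0). The share was 48.4% when the summit of the peak, rather than any part of it, had to lie within 1 kb. The 224 include 59 genes whose peaks all lay at ends of protein-coding genes. Among all RefSeq genes on these chromosomes, 36.3% had a peak over the gene or within 1 kb of it. Because a long gene can meet a peak anywhere along its length, short RNA genes are the closer comparison in length. Other differences between these gene types, such as their place within other genes, were not compared. The share was 16.9% of 1136 microRNA genes (95% interval 14.8 to 19.2), 11% of 1276 small nucleolar RNA genes (9.31 to 12.8) and 7.47% of 924 small nuclear RNA genes (5.86 to 9.36), none of which reached the interval of the tRNA genes. Genes of long non-coding RNAs had 24.1% and protein-coding genes 63.4%. A peak overlapped the tRNA gene itself in 212 of the 224 marked genes (94.6%).

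Many marked tRNA genes had a peak away from any protein-coding gene end. In 165 of the 386 genes (42.7%, 95% interval 37.8 to 47.9) at least 1 of the peaks had no coding gene start or end within 1 kb. By the same rule 10.3% of all RefSeq genes, 6.34% of microRNA genes, 1.96% of small nucleolar RNA genes and 4.22% of small nuclear RNA genes had such a peak, as did 11.8% of long non-coding RNA genes and 14.2% of protein-coding genes. The rule sets aside the peaks at a coding gene's own ends. The share of protein-coding genes is therefore low by definition, as is that of all RefSeq genes, of which 20558 of 46709 are protein-coding. A further 59 tRNA genes (15.3%) had peaks at coding gene ends only, and there the mark cannot be given to the tRNA gene or to its neighbour. Under a stricter rule, chosen after seeing the data, that also set aside peaks within 1 kb of an end of any other gene, such as a long non-coding RNA gene, 27.7% of the tRNA genes kept a peak.

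Every amino acid had at least 1 marked gene with a peak away from coding gene ends. Proline genes had the highest share of marked genes, 13 of 15 (86.7%, 95% interval 59.5 to 98.3), followed by alanine with 18 of 21 (85.7%, 63.7 to 97.0) and arginine with 19 of 23 (82.6%, 61.2 to 95.05). These 3 intervals overlap each other and those of most other amino acids. Only the alanine interval lay wholly above that of all tRNA genes (52.9 to 63.0). The lowest shares were found for asparagine (6 of 13, 46.2%), histidine (4 of 11, 36.4%) and cysteine (4 of 57, 7.02%, 95% interval 1.95 to 17.0). Only the cysteine interval lay wholly below that of all tRNA genes. Of the 57 cysteine genes, 48 lie in 1 unmarked block on chromosome 6, so the low share rests largely on that locus. Of the 8 cysteine genes on other chromosomes, 4 were marked (50%, 95% interval 15.7 to 84.3). Most of the unmarked asparagine and histidine genes lie in 1 unmarked run on chromosome 3, so these shares also rest in part on 1 locus. The intervals treat genes as independent, although members of a cluster often share 1 peak. Methionine genes, which serve both initiation and elongation, were marked in 10 of 16. Without the cysteine genes, a comparison added after seeing the data, 220 of 329 genes were marked (66.9%, 95% interval 61.5 to 71.9). The alanine interval overlapped this interval, so its place above that of all tRNA genes depends on the cysteine genes.

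**Figure D1:**
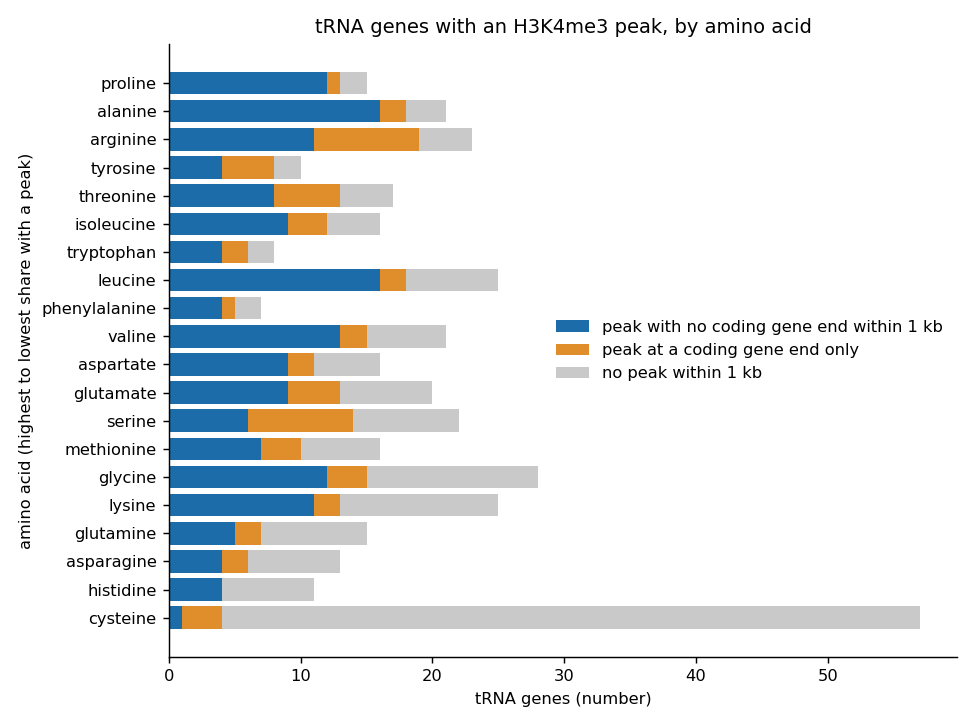
Number of tRNA genes per amino acid (horizontal axis), split into genes with a peak that has no coding gene end within 1 kb (blue), genes with peaks at coding gene ends only (orange) and genes with no peak within 1 kb (grey). Amino acids run from the highest share of marked genes at the top (proline, 13 of 15) to the lowest (cysteine, 4 of 57).

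By anticodon, 44 of the 48 anticodons named in the table had at least 1 marked gene, and 43 had one with a peak away from coding gene ends. All genes were marked for 9 anticodons, among them AGG for proline (6 of 6), AAG for leucine (5 of 5), TGT for threonine (4 of 4) and CCT for arginine (4 of 4). The only isoleucine gene with the anticodon TAT, n-TItat14, was marked by a peak of 64 tags with a fold enrichment of 21.7. That peak also held an end of another gene, neither protein-coding nor a tRNA gene. No gene was marked for 4 anticodons, each with 1 or 2 genes: ACC for glycine, ATG for histidine, GGA for serine and TTT for lysine. Both lysine TTT genes lay in chromosome 13 clusters with marked members, n-TKttt22 2190 bp and n-TKttt23 2794 bp from the nearest peak. The histidine gene n-THatg1 stood alone, 164577 bp from any peak.

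In strength, the tRNA peaks away from coding gene ends lay nearer to peaks at coding gene ends than to other peaks away from them. These 98 peaks had a median fold enrichment of 33.9 (quartiles 24.4 and 41.2), a median length of 1930 bp (1313 and 2460) and a median of 258 tags. The 43 tRNA peaks with a coding gene end within 1 kb had medians of 41.95, 2882 bp and 467 tags. Among peaks on chromosomes 1 to 19 that were not near a tRNA gene, those at coding gene ends had a median fold enrichment of 38.3 (28.6 and 45.6, 10811 peaks). Those without a coding gene end had 10.8 (7.96 and 18.8, 7757 peaks). A fold enrichment of 30 or more was reached by 62 of the 98 tRNA peaks (63.3%), against 13.8% of the other peaks without a coding gene end and 72.5% of the other peaks at coding gene ends. Where 2 or more tRNA genes shared a peak, 43 of the 98, the median length was 2136 bp and the median fold enrichment 34.7. Where 1 tRNA gene had the peak to itself, these were 1823 bp and 31.3.

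**Figure D2:**
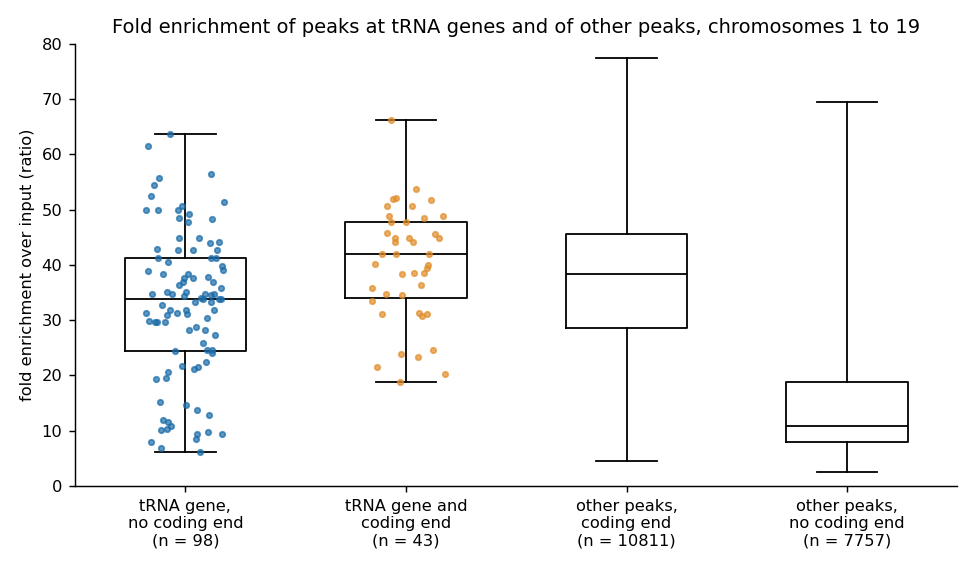
Fold enrichment over the input (ratio, vertical axis) of 4 sets of peaks on chromosomes 1 to 19. Boxes give the quartiles and median, whiskers the lowest and highest peak, and dots single peaks at tRNA genes, whose positions sideways carry no meaning. The 98 tRNA peaks without a coding gene end (median 33.9) lie near the 10811 other peaks at coding gene ends (38.3) and above the 7757 other peaks without one (10.8).

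The strongest peak away from coding gene ends lay over n-TGtcc2, a glycine gene on chromosome 1 (171037997 to 171038068). It held 412 tags over 2515 bp with a fold enrichment of 63.65. It was followed by n-TLtaa3, a leucine gene outside any tRNA cluster on chromosome 10 (12922571 to 12922653), with a fold enrichment of 61.5 and 299 tags. That peak lay 14472 bp from the nearest coding gene end. The next were the glycine gene n-TGtcc1 (56.4), the aspartate gene n-TDgtc15 (55.7), the glycine gene n-TGgcc2 (54.55) and the arginine gene n-TRtct2 (52.5). The other 4 of the top 10 were n-TFgaa4 for phenylalanine, n-TWcca5 for tryptophan, n-TKctt14 for lysine and n-TPagg7 for proline, at 49.9 to 51.4. The tenth place was a tie at 49.9 between n-TPagg7 and the aspartate gene n-TDgtc5 in the chromosome 1 block, with the summit 151 and 152 bp from the gene. In the 10 genes named first the summit lay 119 to 526 bp from the gene. The peaks of n-TLtaa3, n-TGtcc1, n-TRtct2 and n-TPagg7 also held an end of another gene, neither protein-coding nor a tRNA gene. There the mark cannot be given to the tRNA gene or to that neighbour.

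Peaks shared with coding genes were led by n-TSaga9, a serine gene on chromosome 4 (10874064 to 10874145), beside an end of 2610301B20Rik, with a fold enrichment of 66.2 and 659 tags. The next were n-TScga2 beside Smarcc2, which encodes a chromatin remodelling subunit (53.8), and n-TYgta3 beside Abt1 (52.1). They were followed by n-TIaat5 beside Ctc1, a telomere maintenance gene (51.9), and n-TVcac7 beside Trim41 (51.7). In n-TYgta3 and n-TVcac7 the summit lay 1987 and 1720 bp from the tRNA gene, against 119 to 446 bp in the other 3 genes. In all, 50 coding genes had an end within 1 kb of 1 of the 43 shared peaks, among them the clock gene Per1, the Notch target Hes7, the histone genes H4c8, H2ac10 and H3c8, and Polr3e.

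The summit of the peak, its highest point, lay beside the tRNA gene and in no case inside it. For the 98 peaks away from coding gene ends the median distance from the summit to the nearest tRNA gene was 243 bp, with quartiles of 160 and 375 bp. The summit lay under 100 bp away in 3 peaks, at 100 to under 200 bp in 32, at 200 to under 300 bp in 27 and at 300 bp to under 400 bp in 19. A tRNA gene is short beside such a peak. In the 49 peaks with 1 tRNA gene lying wholly inside, the gene took up a median of 3.98% of the peak's length. In these 49, the centre of the gene lay a median of 249 bp from the centre of the peak. For the 43 peaks with a coding gene end the median summit distance was 448 bp, also with no summit inside a tRNA gene.

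**Figure D3:**
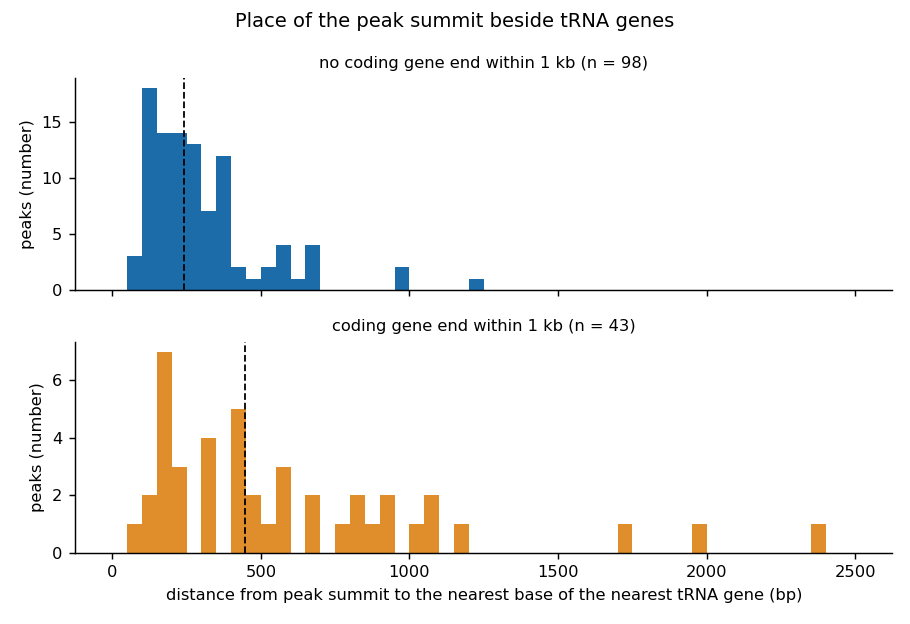
Distance in bp from the peak summit to the nearest base of the nearest tRNA gene (horizontal axis) against the number of peaks (vertical axis, bins of 50 bp), for the 98 peaks with no coding gene end within 1 kb (top) and the 43 with one (bottom). Dashed lines mark the medians, 243 and 448 bp. No summit lies at 0, inside a tRNA gene.

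Clusters of tRNA genes were mostly marked throughout or not at all. With genes 10 kb or less apart joined, 286 genes fell into 61 clusters of 2 or more, and 100 stood alone. Every member was marked in 34 clusters (110 genes), some members in 16 (62 of 109 genes) and none in 11 (67 genes). Larger clusters were more often mixed: of the 22 clusters with 5 or more genes, 7 were marked throughout, 10 in part and 5 not at all. Single genes were marked in 52 of 100 (52.0%, 95% interval 41.8 to 62.1) and clustered genes in 172 of 286 (60.1%, 54.2 to 65.9), and these intervals overlap. Without the cysteine genes they did not overlap, with 51 of 96 single genes (53.1%, 42.7 to 63.4) and 169 of 233 clustered genes (72.5%, 66.3 to 78.2) marked. For peaks away from coding gene ends, with the cysteine genes included, the shares were 27.0% (18.6 to 36.8) of single and 48.3% (42.3 to 54.2) of clustered genes. Without the cysteine genes these shares were 27.1% (18.5 to 37.1) and 59.2% (52.6 to 65.6). Members of a cluster often share 1 peak, so they are not independent. When the summit had to lie within 1 kb of the gene, 21 clusters were marked throughout and 28 in part, and with genes joined at 25 kb only 3 clusters were unmarked.

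The largest group without the mark was a block of cysteine genes on chromosome 6 (48133937 to 48363603). It held 48 genes over 230 kb, in runs of up to 22, and no peak lay anywhere in it. All 48 have the anticodon GCA, the sources used here do not say how reads from near-identical copies were placed, and the part of this in the count was not tested. The distance from its genes to the nearest peak was 31350 to 150566 bp, with a median of 85664 bp. The largest cluster of all (48244316 to 48317586, 22 genes) and the clusters of 10 and 9 cysteine genes beside it all lay in this block. Of the 8 cysteine genes on other chromosomes 4 were marked: n-TCgca51, n-TCgca54 and n-TCgca55 on chromosome 11, at peaks shared with coding gene ends, and n-TCgca52 on chromosome 17, at a peak of 414 tags with a fold enrichment of 42.8. The peak of n-TCgca52 also held an end of another gene, neither protein-coding nor a tRNA gene.

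On chromosome 1, a block of 25 genes (171033942 to 171111515) carried strong peaks at its edges and few within. All 5 genes of the left cluster and all 5 of the right cluster were marked, with the peak of n-TGtcc2 in the left one. Between them lay 15 genes in 3 copies of the order glutamate, glycine, aspartate, leucine, glycine, repeated at steps of 7574 to 7671 bp. Of these 15, only the first 3 were marked, n-TEctc5, n-TGtcc1 and n-TDgtc3, all by 1 peak of 331 bp with 98 tags and a fold enrichment of 56.4. That peak was the shortest of the 98 away from coding gene ends. The other 12 genes had no peak within 1 kb, at 1221 to 9539 bp from the nearest. As for the cysteine genes, the part of read placement among copies in these counts was not tested.

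A block of 25 genes on chromosome 3 (96322074 to 96501518) was split. The 20 genes on its left, for asparagine, glutamine, histidine, glycine and other amino acids, had no peak within 1 kb, at 3949 to 31108 bp from the nearest. The 5 genes of the rightmost cluster (96497781 to 96501518) were all marked by 2 peaks, the stronger with 963 tags and a fold enrichment of 48.3 over 4 of the genes. The weaker, the only peak at n-TNgtt12, had 62 tags and a fold enrichment of 11.9. Peaks of similar strength, with fold enrichments of 10.8 to 14.5, did lie between the unmarked genes, but more than 1 kb from each. The histidine gene of the BC107364 window belongs to the unmarked run.

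Chromosome 13 held the largest share of the members, 105 genes, of which 104 lay between 21160785 and 23530419. In that block 74 genes were marked, 70 of them by a peak away from coding gene ends, and they shared 43 peaks. Counted once for each marked gene, so that a shared peak counts more than once, the fold enrichments ran from 6.17 to 52.07 with a median of 31.6. Clusters within the block differed. All 9 genes of the leftmost cluster (21160785 to 21172942) were marked, as were 12 of the 14 in the cluster from 23425646 to 23453514. Only 5 of 15 were marked in the cluster from 21907111 to 21940995, 5 of 10 in that from 21234045 to 21279768 and 1 of 6 in that from 23498106 to 23506590. The 30 unmarked genes lay 1193 to 14598 bp from the nearest peak, closer than the cysteine genes of chromosome 6. A block of 18 genes on chromosome 11 (69037003 to 69125248) was marked throughout, in 14 genes at peaks shared with ends of Ctc1, Borcs6, Per1, Hes7 or Aloxe3 only.

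Few genes sat at the edge of the 1 kb rule. Just inside it were the serine genes n-TSaga1 and n-TSgct8 and the lysine gene n-TKctt12, at 825, 702 and 761 bp from peaks with fold enrichments of 9.4, 19.5 and 9.4. Just outside were the phenylalanine gene n-TFgaa2 (1069 bp), the proline gene n-TPcgg1 (1161 bp) and the tyrosine gene n-TYgta4 (1193 bp), at peaks of 38.9, 7.96 and 52.1. The 162 unmarked genes lay a median of 22.6 kb from the nearest peak (quartiles 5.98 and 86.1 kb), and 14 of them lay within 2500 bp of one. A gene without a listed peak may carry the mark below the calling threshold, since the weakest listed peak held 13 tags. Of the 162, 48 were in the block on chromosome 6, 20 in that on chromosome 3, 12 in that on chromosome 1, 30 in that on chromosome 13 and 9 in other clusters, and 43 stood alone elsewhere.

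The genes of the machinery that makes tRNA were nearly all marked. Of 54 genes of RNA polymerase III transcription and tRNA processing, 52 had a peak within 1 kb of a gene end (96.3%, 95% interval 87.3 to 99.5), against 56.6% of all protein-coding genes on chromosomes 1 to 19, X and Y. The strongest peaks of these 52 genes had a median fold enrichment of 40.3, from 20 to 57.9. For protein-coding genes in general with a peak at a gene end this median was close by, at 39.1. All 18 polymerase III subunit genes were marked, including Polr3a and Polr3b, which encode the large catalytic subunits (41.2 and 44.1), and the alternative subunit genes Polr3g (37.9) and Polr3gl (31.8). All 6 TFIIIC genes were marked, from Gtf3c3 (20) to Gtf3c6 (50.6), and so were Brf1, Bdp1 and Tbp of TFIIIB (39.9, 44.8 and 51.4). Maf1, which encodes a repressor of polymerase III, had a peak of 713 tags with a fold enrichment of 52.4. Gtf3a and the SNAPc genes, which serve other polymerase III genes, were also marked.

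Among 19 genes of tRNA processing and export, 17 were marked. They include Ssb, which encodes the La protein that binds new polymerase III transcripts (43.4), Elac2 for 3′ end cleavage (31.97), Trnt1, which adds the CCA end (50.6), the splicing genes Tsen15, Tsen34 and Tsen54 (25 to 42.6) and the export factor gene Xpot (34.9). The RNase P gene Rpp40 had a peak inside the gene only (34.3), and Rpp25 had none. Polr3e was the only gene of the list whose peak also lay within 1 kb of a tRNA gene.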

How the data were processed

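H3K4me3 was measured by ChIP-seq in 1 library of adult mouse neural progenitor cells, with 1 input library. The build was mm10, per the submitters' processing notes; no aligner is given in the sources used here. MACS 1.4.2 called the peaks on 1 library with the input as control (p cutoff 1e-05, at most 1 tag per position), per the file header, while the submitters' processing notes name MACS2 2.1.0. The deposited file gives, per peak, tag counts without normalization, a score (log10 of the p-value times -10), a ratio called fold enrichment over local input background, and the percent of false discoveries, all the authors' values.

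Gene positions came from the RefSeq table of GRCm38.p6, which gives no strand. Distances are in bp between the nearest bases, 0 for an overlap, and a coding gene end is the start or end of a protein-coding gene. Clusters join tRNA genes 10 kb or less apart. Distance counting was tested on simulated peaks. Intervals are exact (Clopper-Pearson) 95% binomial intervals; PCR reads that carry no molecular identifiers are not independent molecules. Genes were named by rule: the 10 strongest peaks away from coding ends and the 5 strongest beside them (1 gene each), the 5 largest clusters, methionine and selenocysteine genes (no symbol names the latter), 3 genes on either side of the 1 kb limit, and the 3 highest and lowest amino acids. Other names and the printed sequences were chosen after their values were seen. Of the genes in the fixed lists, 1 progenitor marker and 1 tRNA processing gene are not reported here and were left out of the counts. The members, lists and rules were chosen with earlier results of these data known. Python 3.11.15, pandas 2.3.3, numpy 2.4.6 and scipy 1.17.1 were used.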

Additional observations from a re-analysis of the deposited data

Results flagged for a closer look

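The 17 tRNA genes on chromosome X were outside the comparisons. Of these, 2 had a peak called above the input within 1 kb, the alanine gene n-TAtgc1 (fold enrichment 7.96, 30 tags) and the valine gene n-TVtac3 (20.2, 154 tags). That is 11.8% (exact 95% interval 1.46 to 36.4), and each peak had a coding gene end within 1 kb. None of the 17 had a peak away from coding gene ends (upper bound of the 95% interval 19.5%).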

How the results depend on the processing

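Of 92 values recomputed under other settings, 79 stayed within the 95% interval of the value reported or, for counts, within 1.5 times. With the summit rather than any part of the peak within 1 kb, 48.4% of tRNA genes had a peak and 36.3% had one away from coding gene ends, 21 clusters were marked throughout and 28 in part. With a window of 2500 bp, 9 clusters were marked in part. With coding gene ends sought within 5 kb of the peak, 32.1% of tRNA genes kept a peak away from them. Joining genes 5 kb or less apart left 21 clusters without a mark, and joining at 25 kb left 3 such clusters and 20 marked throughout. Settings chosen after seeing the data moved 4 values. Without the cysteine genes the shares were 66.9% and 49.8%, and without peaks near an end of any other gene 27.7% of tRNA genes and 62 peaks remained. In each of these cases the cause was not tested. The 5 genes with unplaced positions would lower the share with a peak to 57.3%. The filter on the false discovery rate removed no peak, since the highest listed value is 0.32%. The values under this filter are counted among the 79 but could not change. No paired analysis was possible because there was 1 library of each kind. Depth limits the list to peaks of 13 tags or more.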
